A study of Mus musculus with 2 samples.

Results

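The cells described here are 227 of 30924 kept retinal cells, 88 WT and 139 ND6, that passed a rod bipolar gate on UMIs of 8 marker genes. Other markers went with that name in 73 WT and 70 ND6 of them. In the remaining 15 and 69, as groups, they were mixed and did not bear the name out. Rod bipolar cells are the second-order neurons of the night-vision pathway of the retina. They collect signals from rods in the outer plexiform layer through the metabotropic glutamate receptor mGluR6, a G protein cascade and the cation channel TRPM1, so that the cells depolarize when light lowers glutamate release. They pass the signal on at ribbon synapses, mainly to AII amacrine cells, and their terminals are held in check by GABA and glycine receptors. Protein kinase C alpha is their classical marker.

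The data are droplet-based 3′ scRNA-Seq counts of unique molecular identifiers (UMIs) from whole retina of male C57BL/6J mice aged 7 months, with 1 library of WT mice and 1 library of ND6 mutant mice. The mutants carried P25L in mt-Nd6, a subunit gene of respiratory complex I on mtDNA, chrM:13552-14070 in mm10. The study describes the mutation as homoplasmic in the whole body, and the line is kept by crossing mutant females with WT males. The number of mice behind a library is not given in the sources used here. No further allele or treatment is given for either library. With 1 library per group there was no test, and every 95% interval below covers counting error only.

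Members were selected on measured values. Barcodes were kept that held more than 400 UMIs and more than 200 detected genes and in which no more than 20% of the UMIs came from mtDNA. A kept cell passed the ON bipolar gate with UMIs of at least 3 of *Trpm1*, *Grm6*, *Pcp2*, *Isl1* and *Gng13* that summed to at least 0.2% of its UMIs, and was a rod bipolar member with at least 2 UMIs of *Prkca*, *Car8* and *Sebox* together. This gave 88 members of 12529 kept WT cells and 139 of 18395 kept ND6 cells. The other cells of the ON bipolar gate numbered 96 in WT and 264 in ND6. No barcode was shared between the members of the libraries, and 59 were shared between the kept cells. The members held 678566 WT and 1317378 ND6 UMIs, with a median of 5522 (range 460 to 48597) and 6586 (range 469 to 40689) per cell. Members are cells of 1 library each and are not replicates.

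The label held for a part of the members. UMIs of *Prkca*, *Car8* and *Sebox* per cell were counted over the ON bipolar gate. In WT, 82 cells had 0, 14 had 1, 15 had 2 to 9 and 73 had at least 10. In ND6, 198 cells had 0, 66 had 1, 69 had 2 to 9 and 70 had at least 10. Members with at least 10 of these UMIs are called marker-rich here, and those with 2 to 9 marker-poor. Marker-poor cells made up 17.0% of WT members and 49.6% of ND6 members, and 3 WT and 27 ND6 members sat at the limit of 2 UMIs, beside 14 WT and 66 ND6 cells just outside it with 1. The limit of 10 UMIs was chosen after these values were seen, and it counts UMIs without regard to depth. Marker-rich members held at least 3292 UMIs in WT and 2801 in ND6, and marker-poor members reached down to 460 and 469. Marker-poor members were not all shallow, with medians of 3879 UMIs in WT and 6048 in ND6 and highest values of 20835 and 28650. Of them, 2 of 15 in WT and 22 of 69 in ND6 held at least 10000 UMIs. Free RNA of the gate genes also differed between the libraries, as given below, and its part in these counts was not tested. All of *Prkca*, *Car8* and *Sebox* were detected in 71 of 73 marker-rich WT members and 65 of 70 marker-rich ND6 members, against 5 of 15 and 2 of 69 marker-poor ones. At the share limit, 6 WT and 28 ND6 members had 0.2% to 0.3% of their UMIs in the ON gate genes, and 0 WT and 27 ND6 cells that met the other limits lay just outside, at 0.1% to 0.2%.

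**Figure D1:**
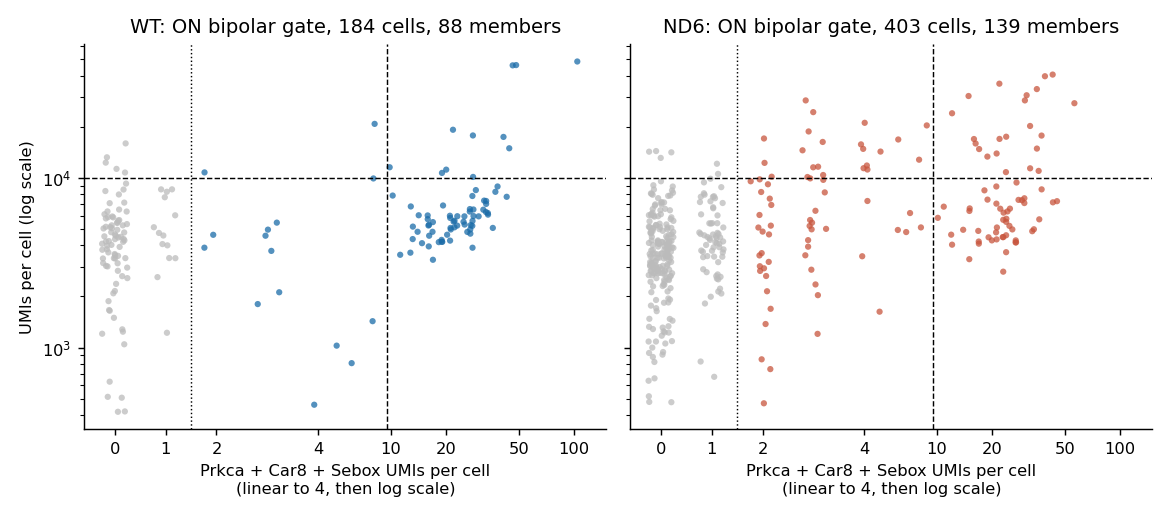
Each point is 1 cell of the ON bipolar gate, with its UMIs of *Prkca*, *Car8* and *Sebox* on the x axis (linear to 4, then log, spread sideways by less than 0.5 UMIs) and all its UMIs on the y axis (log scale). Coloured points are members, grey points the other cells, and lines mark the limits of 2, 10 and 10000 UMIs. The 15 WT marker-poor members are few beside the 73 marker-rich ones, and the 69 in ND6 match the 70 marker-rich ones in number.

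Genes that the gate did not use separated marker-rich members from the other cells of the ON bipolar gate in both libraries. *Vstm2b*, a gene enriched in rod bipolar cells (chr7:40898328-40930594), was measured at 656 CPM (UMIs of the gene per 1000000 UMIs summed over the cells) in marker-rich members, 157 CPM in marker-poor members and 28.9 CPM in the other ON gate cells of WT. In ND6 the same levels were 366, 68.2 and 38.7 CPM. *Strip2*, a component of the STRIPAK phosphatase complex (chr6:29917012-29959681), gave 518, 170.2 and 8.90 CPM in WT and 252, 64.6 and 30.6 CPM in ND6. *Scgn*, which encodes the calcium sensor secretagogin of cone bipolar cells (chr13:23953456-23991214), ran the other way, with 71.4, 511 and 416 CPM in WT and 72.3, 257 and 464 CPM in ND6. *Cck*, the cholecystokinin precursor, was at 354 CPM in WT and 131 CPM in ND6 marker-poor members. Summed, the 7 rod bipolar markers outside the gate gave 2420, 707 and 828 CPM in WT and 1550, 540 and 742 CPM in ND6. On that sum marker-poor members were below the other ON gate cells. The markers outside the gate thus went with the rod bipolar label in marker-rich members. The marker-poor members as a group had lower rod bipolar markers and more *Scgn* than marker-rich ones, against their label. Their *Vstm2b* and *Strip2* were nevertheless above the other ON gate cells in both libraries, and in ND6 their *Scgn* was below. The markers were thus mixed in marker-poor members, which are given no other cell type name. Single cells could differ from their group. The highest share of the 7 markers in a cell was 0.652% in marker-poor and 0.555% in marker-rich WT members. In ND6 it was 0.536% and 0.573%. A high share can rest on very few UMIs in a shallow cell, and marker-poor members reached down to 460 UMIs in WT and 469 in ND6. These highest shares therefore do not name single cells.

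Depth divided the marker-rich members further. Of these, 11 of 73 in WT and 22 of 70 in ND6 held at least 10000 UMIs, and they carried 254047 of 602189 and 486934 of 760437 UMIs. The remaining 62 WT and 48 ND6 cells, with medians of 5503 and 5363 UMIs, are called shallow marker-rich members. In them the 12 genes of the rod list summed to 13718 CPM in WT and 16983 CPM in ND6, below 24854 and 34019.8 CPM over all members and 80748 and 82093 CPM over all other kept cells. The 8 genes of the cone list summed to 764 and 618 CPM in shallow marker-rich members, against 625 and 1297 CPM over all members. Per cell, the cone share in shallow marker-rich members had a median of 0% and 0.022% and a highest value of 2.25% and 1.06%. It was 0 in 39 of 62 WT and 14 of 48 ND6 cells, so these sums rested on few cells. No doublet caller was run, and the part that cells captured together had in any value was not tested. Comparisons of ND6 with WT are therefore given over all members, over the shallow marker-rich members, a subset chosen after the values were seen, or over both, as stated with each value.

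Thinning every kept cell to 2500 UMIs, which leaves out shallower cells, gave the same picture of the markers. *Vstm2b* was then detected in 57 of 62 shallow marker-rich WT members (91.9%, exact interval 82.2% to 97.3%) and 42 of 48 in ND6 (87.5%, 74.8% to 95.3%), none of which had to be left out. It was detected in 3 of 9 marker-poor WT members and 7 of 59 marker-poor ND6 members, with 6 and 10 left out. The background share over all other kept cells was 0.305% in WT and 1.13% in ND6. Without thinning, the share was 100% and 95.8% in shallow marker-rich members, and 0.474% and 1.01% in the other kept cells, whose median depths were 1866 and 1408 UMIs. *Scgn* after thinning was found in 2 of 62 WT and 1 of 48 ND6 shallow marker-rich members, and in 6 of 9 and 28 of 59 marker-poor members.

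**Figure D2:**
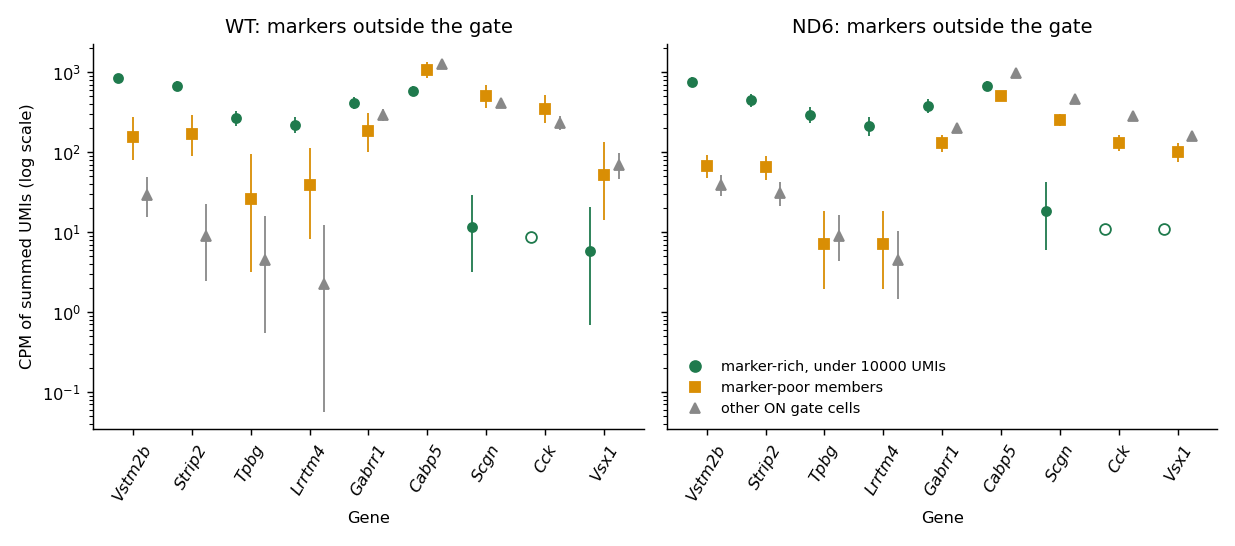
CPM of summed UMIs (log scale) for 9 genes the gate did not use, in shallow marker-rich members, marker-poor members and other ON gate cells of each library, with exact 95% Poisson intervals (counting error only). Open symbols are counts of 0, drawn at the level of 3 counts. *Vstm2b*, *Strip2*, *Tpbg* and *Lrrtm4* are highest in marker-rich members, and *Scgn*, *Cck* and *Vsx1* are lowest there.

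Members differed from the other ON bipolar cells in a set of genes shared by the libraries. These values follow from a gate set on the same cells and are a description. *Lrrtm4*, a postsynaptic organizer (chr6:80018877-80810143), had a log2 ratio of members over other ON gate cells of 5.91 (interval 3.40 to 11.23) in WT and 3.86 (interval 2.58 to 5.52) in ND6. *Tpbg*, which encodes trophoblast glycoprotein (chr9:85842380-85847040), had 5.21 (interval 3.33 to 8.28) and 3.24 (interval 2.31 to 4.34). *Il1rap*, the coreceptor of the interleukin 1 receptor, had 5.44 (interval 3.56 to 8.50) and 6.28 (interval 3.77 to 11.60). The WT and ND6 ratios of *Kcne2*, an accessory subunit of potassium channels, were 5.28 (interval 3.39 to 8.34) and 4.17 (interval 2.56 to 6.49), and those of *Ano3*, of the anoctamin family, 3.80 (interval 2.18 to 6.11) and 3.97 (interval 2.01 to 7.06). The intervals are wide because these genes had few UMIs in the other ON gate cells, where *Lrrtm4* held 1 in WT and 5 in ND6. *Tmem196* and *Cep112* had 0 UMIs there in WT and ratios of 3.30 (interval 1.64 to 5.65) and 3.17 (interval 2.19 to 4.34) in ND6. The intervals of the WT and ND6 ratios overlapped for all 5 genes measured in both. Counting shallow marker-rich members alone, the ratio to the other ON gate cells was 6.63 and 5.56 for *Lrrtm4*, and 5.91 and 5.04 for *Tpbg*.

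On the other side, members were lower than the other ON gate cells in genes that included *Htr3a*. *Htr3a*, a serotonin receptor subunit known from cone bipolar cells, had a log2 ratio of -3.92 (interval -9.36 to -1.10) in WT and -3.80 (interval -5.48 to -2.50) in ND6, with 1 and 5 UMIs in members. *Hs3st4*, a heparan sulfate sulfotransferase, had -3.42 (interval -4.54 to -2.46) and -2.04 (interval -2.67 to -1.46). *Cdh9*, a cadherin, had -3.40 (interval -5.11 to -2.04) and -2.00 (interval -2.82 to -1.24), and *Tnnt1*, a troponin T, -2.37 (interval -3.35 to -1.49) and -2.20 (interval -2.61 to -1.81). Against all other kept cells the highest named genes were *Lrrtm4*, *Vstm2b*, *Tpbg*, *Slc5a8*, *Slco5a1* and *Bend4*, with WT log2 ratios of 7.02 to 8.90 and ND6 log2 ratios of 5.43 to 6.17. *Slc5a8* and *Slco5a1* encode solute carriers, the former for monocarboxylates.

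The share of rod bipolar cells among kept cells depended on the gate. In WT, members were 0.702% of kept cells (exact 95% interval 0.564% to 0.865%), and in ND6 they were 0.756% (0.636% to 0.892%). The log2 ratio of the shares was 0.11 (-0.29 to 0.51). Marker-rich members were 0.583% (0.457% to 0.732%) and 0.381% (0.297% to 0.481%), with a ratio of -0.61 (-1.11 to -0.12). Marker-poor members were 0.120% (0.067% to 0.197%) and 0.375% (0.292% to 0.474%), with a ratio of 1.65 (0.83 to 2.56). The interval for the total included 0, while those of its parts lay on opposite sides of 0, and the other ON gate cells were also more numerous in ND6. A gate of at least 4 UMIs gave 0.631% and 0.473%. Without the limit on mtDNA-encoded UMIs, which removed 16 WT and 10 ND6 cells that met the gate, the shares were 0.449% and 0.669% of a larger set of cells. The yield of each dissociation and the genotype cannot be told apart with 1 library of each.

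The levels of the gate genes differed between all members and shallow marker-rich members. *Trpm1*, which encodes the cation channel opened by light, held 1874 and 2115 UMIs, or 2762 and 1605 CPM, over all members, a log2 ratio of ND6 over WT of -0.78 (interval -0.87 to -0.69). It was at 4096 and 4219 CPM in shallow marker-rich members, a log2 ratio of 0.043 (interval -0.070 to 0.16). *Pcp2*, a modulator of Go signalling, was at 4965 and 2715 CPM over all members and at 7135 and 6728 CPM in the shallow marker-rich ones. *Prkca* (chr11:107933387-108343928) was at 1555 and 895 CPM and then at 2275 and 2292 CPM, and *Car8*, a carbonic anhydrase related protein, at 789.9 and 378 and then at 1123 and 1129.8 CPM. *Sebox*, a homeobox gene, was at 477 and 213 and then at 744 and 680.1 CPM. *Isl1*, the LIM homeobox factor of ON bipolar cells, differed from these, with 498 and 471 CPM over all members and 580.2 and 998 CPM in shallow marker-rich members. These genes chose the members, so their values are given without further reading. Free RNA was counted in the barcodes of 10 to 100 UMIs, below the limit for a cell. There *Prkca*, *Car8* and *Sebox* summed to 92.9 CPM in WT and 231 CPM in ND6. In marker-poor members, which were chosen on these UMIs, they summed to 825 and 399 CPM. The ON gate genes summed to 305 and 897 CPM in free RNA. The part of free RNA in which cells passed the gate was not tested.

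Over all members, 253 of 6503 genes with at least 50 UMIs were at least 2-fold higher in ND6 (3.89%) and 102 were at least 2-fold lower (1.57%). In shallow marker-rich members 40 of 2384 genes (1.68%) were at least 2-fold higher and 18 (0.755%) at least 2-fold lower. No gene is called changed from these counts, which are the background for the lists below. Of genes with at least 20 UMIs, the interval lay above 0 in 1134 and below 0 in 741 of 9371 over all members, and in 392 and 211 of 5050 in shallow marker-rich members. The median log2 ratio over these genes was 0.086 over all members, 0.093 in shallow marker-rich members and 0.062 in all other kept cells (15803 genes). Of them 5411 were higher and 3960 lower over all members, and 2955 and 2095 in shallow marker-rich members. In all other kept cells 8885 were higher and 6918 lower.

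The 7 rod bipolar markers outside the gate, *Vstm2b*, *Strip2* and *Tpbg* among them, were lower in ND6 over all members, and the difference was smaller in the shallow marker-rich members. Over all members 7 of 7 were lower, against 3960 of 9371 for all genes, with a median of -0.96. By at least 2-fold, 3 of 7 were lower (background 1.57%). Among shallow marker-rich members 5 of 7 were lower, against 2095 of 5050 for all genes, with a median of -0.13. By at least 2-fold, 0 of 7 were lower in shallow marker-rich members (background 0.755%). Those members were chosen by UMIs of *Prkca*, *Car8* and *Sebox*, which summed to 4142 CPM in WT and 4102 CPM in ND6 there. The part of that choice in the smaller difference was not tested. *Vstm2b* was at 599.8 and 239.9 CPM over all members, a log2 ratio of -1.32 (interval -1.54 to -1.11), and at 862 and 764 CPM in the shallow marker-rich ones, a log2 ratio of -0.17 (interval -0.44 to 0.086). *Tpbg* had -0.96 (interval -1.35 to -0.57) over all members and 0.15 (interval -0.30 to 0.59) in shallow marker-rich members. *Strip2* kept an interval below 0 in both, at -1.47 (interval -1.72 to -1.22) and -0.60 (interval -0.92 to -0.28), with 237 WT and 123 ND6 UMIs in shallow marker-rich members. In all other kept cells the 7 markers had a median of 1.02. The number of ON gate cells there was larger in ND6, and its part in this was not tested.

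The genes of the mGluR6 cascade that the gate did not use differed among themselves. Of 9 measured, 2 were higher and 7 lower over all members (median -0.18), and 5 were higher and 4 lower in shallow marker-rich members (median 0.059). *Gnao1*, the alpha subunit of Go, was at 1058 and 758 CPM over all members and at 1390.2 and 1448 CPM in shallow marker-rich members, where its log2 ratio was 0.059 (interval -0.14 to 0.25). *Gnb3*, the beta subunit, was at 1059.9 and 1411 CPM in shallow marker-rich members, a log2 ratio of 0.41 (interval 0.20 to 0.62) against 0.15 over all members, and *Gpr179*, the receptor that anchors the RGS complex, at 483 and 793 CPM, a log2 ratio of 0.72 (interval 0.42 to 1.02) against -0.018 over all members. Regulators of Go signalling were also measured in these cells. *Rgs11*, which shortens it, was at 296 and 208 CPM, a log2 ratio of -0.51 on 103 and 57 UMIs, and *Rgs7* had -0.22 (interval -0.67 to 0.22). Over all members these ratios were -0.91 and -0.93. *Rgs7bp*, a membrane anchor of these proteins, had -1.31 (interval -1.87 to -0.76) over all members and -2.13 (interval -3.54 to -0.95) in shallow marker-rich ones on 39 and 7 UMIs. *Lrit3*, which is made by photoreceptors, held 1 and 3 UMIs in members.

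Of the 6 transcription factors and other genes common to bipolar cells, *Pcp4l1* had the highest ratio over all members, at 0.72 (interval 0.20 to 1.27). *Bhlhe23*, a bHLH factor of rod bipolar maturation, had -0.38 (interval -0.74 to -0.0097) over all members and 0.20 (interval -0.29 to 0.70) in shallow marker-rich members. *Cabp5*, a calcium-binding protein of bipolar cells, had -0.44 (interval -0.62 to -0.25) and 0.20 (interval -0.093 to 0.49). The list median was -0.19 over all members and 0.20 in shallow marker-rich members, so its sign depended on which members were counted. The free RNA of *Isl1* also differed, with 2 UMIs in WT and 26 in ND6 over the barcodes of 10 to 100 UMIs, below the limit for a cell (8.84 against 66.8 CPM). The part of free RNA in the levels in cells was not tested.

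At the output synapse the 20 measured release genes had a median of 0.12 over all members, with 12 higher and 8 lower, and 0 and 1 of the 19 with at least 50 UMIs past 2-fold (background 3.89% and 1.57%). The median was 0.079 over 17 genes in shallow marker-rich members. *Syt1*, the calcium sensor of vesicle fusion, was at 1393 and 1393 CPM in these cells, with an interval of -0.20 to 0.20 for the log2 ratio, which was 0.024 over all members. *Slc17a7*, the vesicular glutamate transporter VGLUT1, was at 569 and 823 CPM, a log2 ratio of 0.53 (interval 0.25 to 0.82) against 0.64 over all members, beside 1107 and 1499 CPM in all other kept cells, where rods express it too. *Cplx3*, a complexin of ribbon synapses, had -0.27 (interval -0.41 to -0.13) over all members and 0.22 (interval 0.0026 to 0.43) in shallow marker-rich members, with opposite signs. *Cacna1d*, an L-type calcium channel alpha subunit, was lower at 152 and 54.8 CPM in shallow marker-rich members, a log2 ratio of -1.47 (interval -2.41 to -0.62) on 53 and 15 UMIs. *Cacna2d3*, an auxiliary calcium channel subunit, had -1.22 (interval -1.41 to -1.03) over all members and -0.24 (interval -0.48 to -0.0048) in shallow marker-rich ones. Of 11 measured genes of inhibitory input, 4 were higher and 7 lower over all members (median -0.068). Of their intervals 1 lay above 0 and 3 below, against 1134 and 741 of 9371 for all genes. In shallow marker-rich members 7 were measured, with a median of -0.13 and 0 intervals apart from 0, against 392 above and 211 below of 5050 for all genes. *Gabrr1* and *Gabrr2*, the subunits of the GABA-C receptor that sits on rod bipolar terminals, were at 416 and 380.3 and at 353 and 329 CPM there, with intervals of -0.51 to 0.24 and -0.51 to 0.30 on the log2 scale. Over all members their log2 ratios were -0.94 and -0.61.

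The question the study asked of ND6 mutant retina was how the mutation bears on oxidative phosphorylation in each cell type. The mtDNA-encoded share of UMIs over all members was 8.86% (8.79% to 8.93%) in WT and 7.10% (7.06% to 7.14%) in ND6. The log2 ratio was -0.32. The share was 11.2% and 6.75% in shallow marker-rich members, a log2 ratio of -0.73. Per cell, the share ran from 1.41% to 18.6% with a median of 11.0% in these WT cells and from 0.964% to 19.7% with a median of 5.75% in the ND6 cells, so that cells of the libraries overlapped widely. In marker-rich members of at least 10000 UMIs the order was the other way, 5.60% in WT and 7.28% in ND6. All other kept cells held 8.18% and 7.01%, and the barcodes of 10 to 100 UMIs 18.0% and 8.72%. The lower ND6 share was therefore present in other cells and in free RNA of the same library, and the part of free RNA and of cell handling in it was not tested. The limit of 20% cut the distribution in both libraries, and with a limit of 10% the log2 ratio was 0.038, on 37 WT and 109 ND6 members.

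All 13 mtDNA-encoded genes were lower in ND6 over all members and in shallow marker-rich members, with a list median of -0.40 and -0.82, against -0.36 in all other kept cells. They differed from each other by more than their counting error. *mt-Atp8*, a subunit of ATP synthase, was at 228 and 80.5 CPM over all members, a log2 ratio of -1.51 (interval -1.88 to -1.14), and *mt-Nd4l*, a subunit of complex I, at 617 and 251 CPM, a log2 ratio of -1.30 (interval -1.51 to -1.09). Both were 2-fold or more lower in all other kept cells too, at -1.50 and -1.21. *mt-Co1*, the catalytic subunit of complex IV, held 9478 and 12596 UMIs, a log2 ratio of -0.55 (interval -0.59 to -0.51), and *mt-Nd1* was nearest to 0 at -0.084 (interval -0.14 to -0.025). *mt-Nd6*, the mutated gene, is transcribed from the other strand than the remaining 12 and was counted only 25 and 21 times, 36.8 and 15.9 CPM, a log2 ratio of -1.21 (interval -2.12 to -0.31) over all members and -1.24 (interval -2.86 to 0.16) in shallow marker-rich ones. A point mutation does not stop its counting, so this level does not check the label. Reads from overlapping mtDNA transcripts, such as *mt-Atp8* with *mt-Atp6* and *mt-Nd4l* with *mt-Nd4*, can be assigned to either gene. The study reports ND2, CYTB and ATP8 as higher in mutant cell types, and ATP6, CO1, CO2, CO3, ND3 and ND4L as lower. It also measured most of these, but not ATP6 or ATP8, by quantitative PCR of retina. All of them were lower here. The study compared normalized values of single cells by cluster, a measure unlike CPM of summed UMIs, and the difference was not tested.

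**Figure D3:**
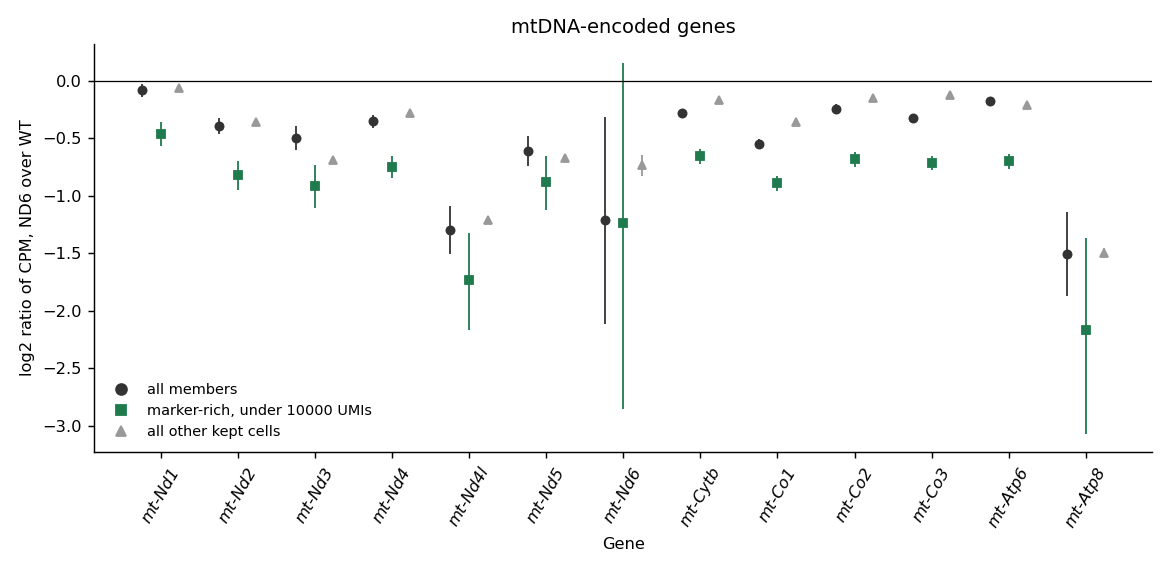
Log2 ratio of CPM, ND6 over WT, for the 13 mtDNA-encoded genes in all members, shallow marker-rich members and all other kept cells, with exact conditional 95% intervals (counting error only). All 39 points lie below 0. The ratio is lower in shallow marker-rich members than over all members for the 12 genes other than *mt-Nd6*, whose values of -1.24 and -1.21 lie within counting error.

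The 79 nuclear genes of the respiratory complexes differed less. Their median log2 ratio was -0.070 over all members, with 25 higher and 54 lower. Intervals lay above 0 in 6 and below 0 in 20, against 1134 and 741 of 9371 for all genes. In shallow marker-rich members the median was -0.033, with 38 higher and 41 lower. There 1 interval lay above 0 and 9 below, against 392 and 211 of 5050 for all genes. The median was 0.16 in all other kept cells (70 higher, 9 lower). Past 2-fold were 0 genes up and 1 gene down over all members, against a background of 3.89% and 1.57%. Their summed level in shallow marker-rich members was 35302 CPM in WT and 34266 CPM in ND6. The 36 genes of complex I, in which the mutated subunit sits, had a median of -0.024 over all members and 0.017 in shallow marker-rich ones. Among them *Ndufa1* was lowest, at -0.69 (interval -0.96 to -0.43) and -0.63 (interval -1.07 to -0.20), and *Ndufs3*, a core subunit, highest over all members, at 0.59 (interval 0.15 to 1.04) and 0.61 (interval -0.20 to 1.44). Complex IV was the lowest of the larger complexes over all members, with 11 of 12 genes lower and a median of -0.21, which was -0.079 in shallow marker-rich members. *Cox7c* was at 955 and 641 CPM over all members, a log2 ratio of -0.58 (interval -0.73 to -0.43) and, in shallow marker-rich members, -0.36 (interval -0.60 to -0.12). *Cox8a* had -0.51 (interval -0.63 to -0.40) and -0.24 (interval -0.42 to -0.060). The 18 genes of ATP synthase had a median of -0.086 and -0.027, with *Atp5k* lowest over all members, at -0.49 (interval -0.68 to -0.29) and -0.40 (interval -0.74 to -0.070). *Sdhd* of complex II was the 1 gene past 2-fold, at -1.07 (interval -1.67 to -0.48) over all members and -0.82 in all other kept cells.

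**Figure D4:**
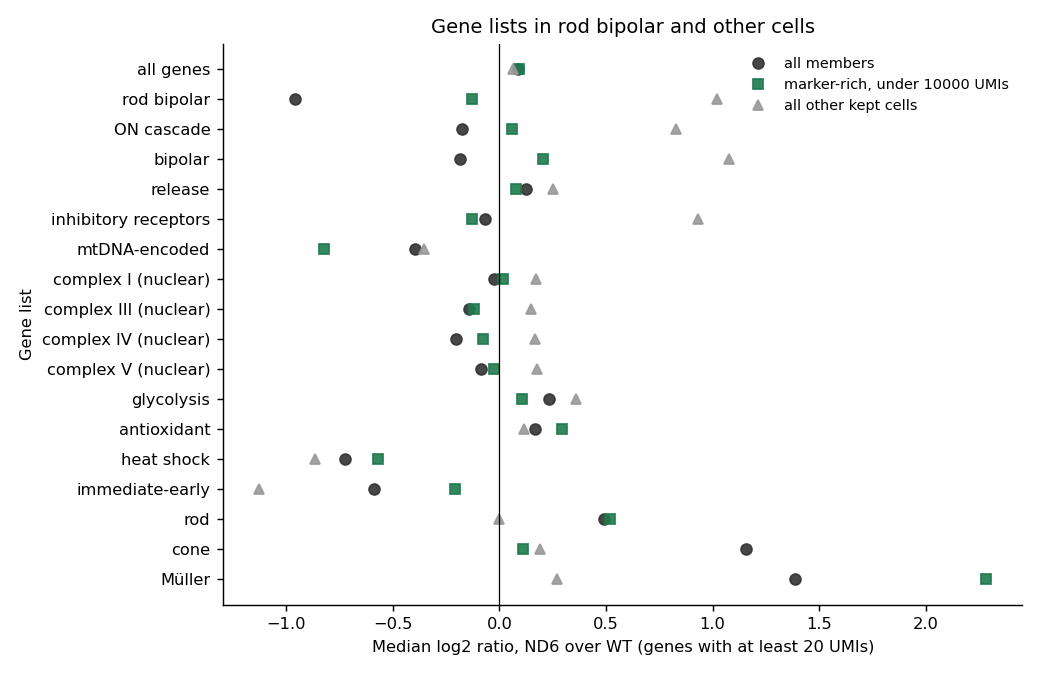
Median log2 ratio, ND6 over WT, of the genes with at least 20 UMIs in each list, for all members, shallow marker-rich members and all other kept cells. The rod bipolar list moves from -0.96 over all members to -0.13 in shallow marker-rich members, the mtDNA list from -0.40 to -0.82, and the nuclear complexes stay within 0.21 of 0 in all 3 sets of cells.

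Glycolysis genes were a little higher in ND6 over all members, with a median of 0.23 over 20 genes, and 0.10 over 18 in shallow marker-rich members. The median in all other kept cells was larger, 0.36, with 18 of 20 higher. Over all members 2 of 20, *Aldoc* and *Ldhb*, were at least 2-fold higher, against the 3.89% of all genes. *Aldoc*, the brain aldolase, was at 68.9 and 179 CPM in shallow marker-rich members, a log2 ratio of 1.38 (interval 0.65 to 2.15), and *Hk1*, a hexokinase, at 198 and 293 CPM, 0.56 (interval 0.079 to 1.05). *Tpi1* and *Pgk1*, later enzymes of the pathway, were on the other side at -0.31 (interval -0.55 to -0.079) and -0.40 (interval -0.73 to -0.074), and at -0.22 and -0.27 over all members. Of the 15 measured antioxidant genes *Prdx6*, a peroxiredoxin, stood apart, at 58.9 and 169 CPM over all members, 1.52 (interval 1.02 to 2.04), and 48.8 and 139 CPM in shallow marker-rich members, 1.51 (interval 0.65 to 2.43). In all other kept cells its log2 ratio was 0.10. *Gpx4*, the lipid peroxide reductase, had 0.30 (interval 0.044 to 0.56) in shallow marker-rich members, and the list median was 0.17 over all members. *Aldoc* and *Prdx6* are also expressed by Müller glia, whose markers are given next.

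Genes of Müller glia were higher in ND6 over all members and in marker-rich members. In UMIs summed over marker-poor members they differed among themselves. *Glul*, glutamine synthetase (chr1:153899944-153909723), held 192 and 1599 UMIs over all members, 283 and 1214 CPM, a log2 ratio of 2.10 (interval 1.88 to 2.32), and 155 and 761 CPM in shallow marker-rich members, 2.29 (interval 1.86 to 2.75). After thinning to 2500 UMIs it was detected in 27.4% of shallow marker-rich WT members and 66.7% of the ND6 ones, against 27.7% and 42.1% of all other kept cells. *Glul* was also detected in 4 of 9 marker-poor WT members and 54 of 59 marker-poor ND6 members. In the other ON gate cells the shares were 48.1% and 86.4%. *Apoe* was at 43.1 and 216 CPM and *Rlbp1* at 68.9 and 183 CPM in shallow marker-rich members. All 8 genes of the Müller list were higher over all members, 5 of the 7 with at least 50 UMIs by at least 2-fold (background 3.89%), and the list summed to 279 and 1272 CPM in shallow marker-rich members, 732 and 2157 CPM over all members and 817 and 921 CPM in all other kept cells. In marker-poor members 1 of 7 measured Müller genes was higher and 6 were lower (median -0.61). There 2 intervals lay below 0 and 1 above, against 247 and 211 of 5797 for all genes. In the other ON gate cells 4 of 8 were higher and 4 lower (median 0.070). The list summed to 2042.5 and 2284 CPM in marker-poor members and to 1487 and 2387 CPM in the other ON gate cells. The WT marker-poor sum held 156 UMIs over 15 cells. Per cell, the median Müller share of marker-poor members was 0.038% in WT and 0.162% in ND6, and the highest was 1.26% and 1.71%. The summed WT values of marker-poor members thus rested on few cells, and by the per-cell median ND6 was higher. In the barcodes of 10 to 100 UMIs the Müller list summed to 1393 and 2726 CPM, above shallow marker-rich members of the same library in both. Free Müller RNA thus also differed between the libraries, and its part in the *Glul* level of rod bipolar cells was not tested.

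Markers of further classes had the following summed levels in shallow marker-rich members of WT and ND6, with those of all other kept cells in parentheses. The 8 amacrine genes summed to 23.0 and 73.1 CPM (96.5 and 242), the 8 ganglion cell genes to 54.6 and 40.2 CPM (66.4 and 115) and the 4 horizontal cell genes to 28.7 and 32.9 CPM (4.16 and 7.40). The horizontal cell list was thus higher in these members than in other kept cells, on 10 and 9 UMIs. The 6 microglia genes gave 8.62 and 43.9 CPM (206 and 102), the 3 endothelium genes 2.87 and 3.66 CPM (2.25 and 5.63), and the 4 pigment epithelium genes 86.2 and 40.2 CPM (2115 and 1644). Hemoglobin showed how a single cell can carry a ratio. The 4 hemoglobin genes held 202 UMIs in WT members and 16 in ND6 members, and *Hbb-bs* was the lowest gene of all named, at -4.59 (interval -5.68 to -3.66). A single marker-rich WT cell of 48597 UMIs held 199 of the 202, and the shallow marker-rich members held 3 UMIs in each library.

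The 12 genes lowest in ND6 over all members included *Hbb-bs* and, beside it, *Strip2*, *Il1rap*, *Kcne2*, *Ano3* and *Tmem196*, which were described above as higher in members than in other ON gate cells. The shallow marker-rich members are among the cells that chose these genes, so their values are a description. There the differences of the latter 5 were smaller, with log2 ratios of -0.85 to -0.48 against -1.92 to -1.47 over all members. Others kept most of their difference. *Gadd45g*, a stress-inducible gene of growth arrest (chr13:51846678-51848468), held 179 and 75 UMIs over all members, a log2 ratio of -2.21 (interval -2.62 to -1.82), and was at 411 and 139 CPM in shallow marker-rich members, -1.56 (interval -2.12 to -1.04). It was lower too in all other kept cells, at -1.21, and in the barcodes of 10 to 100 UMIs, at -2.01. *Bdnf*, brain-derived neurotrophic factor (chr2:109674700-109727007), held 71 and 37 UMIs, -1.90 (interval -2.51 to -1.30), and was at 152 and 54.8 CPM in shallow marker-rich members, -1.47 (interval -2.41 to -0.62), with 0.35 in all other kept cells. *Pde10a*, a cyclic nucleotide phosphodiesterase, had -1.83 (interval -2.37 to -1.31) and -1.33 (interval -2.27 to -0.47), with 0.19 in all other kept cells. *Brd1*, a bromodomain gene, had -1.45 (interval -2.02 to -0.89) and -1.33 (interval -2.52 to -0.27), with -1.27 in all other kept cells. *Lrp2bp* did not, with -1.46 (interval -1.91 to -1.02) and -0.42 (interval -0.97 to 0.12).

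The genes highest in ND6 over all members included markers of cones, cone bipolar cells and Müller glia. *Arr3*, cone arrestin, held 15 and 166 UMIs, 2.51 (interval 1.75 to 3.38) over all members and 0.24 (interval -0.97 to 1.44) in shallow marker-rich members. *Vsx1*, a homeobox gene of cone bipolar cells, held 12 and 101 UMIs over all members and 2 and 0 in shallow marker-rich ones. *Krt18*, a keratin, had 2.23 (interval 1.40 to 3.18) and 1.35 (interval -0.33 to 3.25), and *Cntn5*, a contactin, held 0 and 4 UMIs in shallow marker-rich members. *Nfix*, a nuclear factor I gene, was at 11.5 and 62.2 CPM in shallow marker-rich members, 2.44 (interval 0.82 to 4.47), and *Ndrg2*, an astroglial gene, at 20.1 and 69.5 CPM, 1.79 (interval 0.48 to 3.28). *Nav1*, *Rncr4* and *Ddah1* had 0.93 (interval -1.14 to 3.20), 1.61 (interval 0.0026 to 3.47) and 2.93 (interval -0.11 to 8.46), on 4 and 6, 5 and 12, and 1 and 6 UMIs. These genes too were chosen on cells that include the shallow marker-rich members. All 9 named genes were higher in ND6 in all other kept cells.

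**Figure D5:**
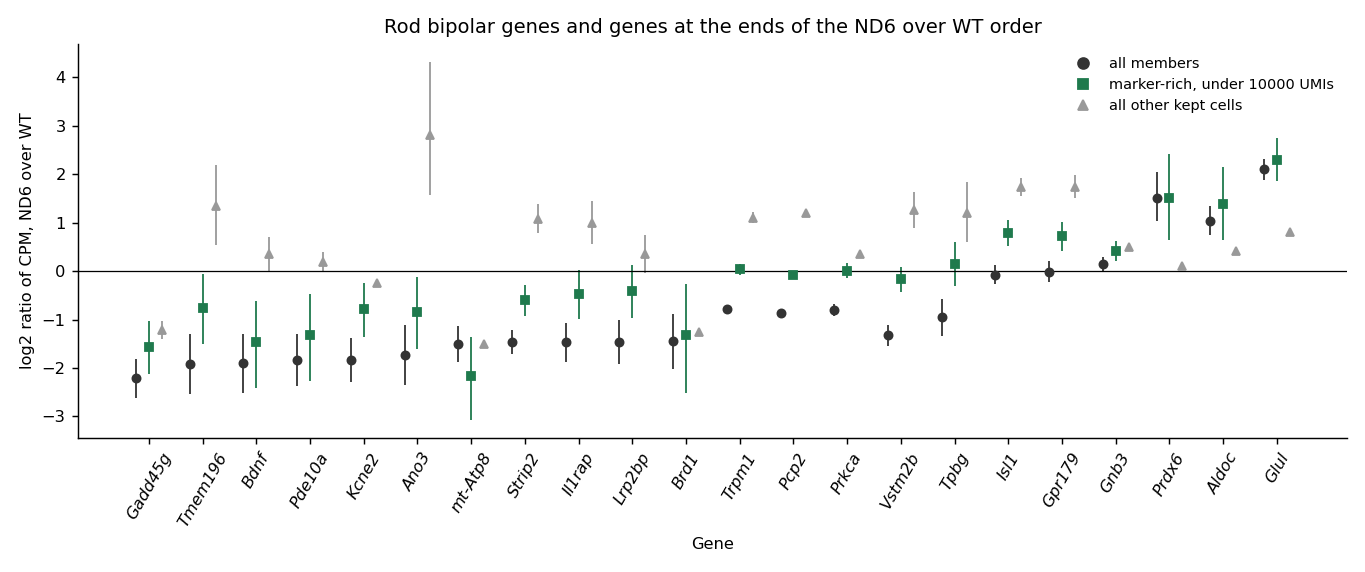
Log2 ratio of CPM, ND6 over WT, with exact conditional 95% intervals (counting error only), for the genes lowest over all members except *Hbb-bs*, for rod bipolar genes, and for genes named in the text as higher in ND6. *Vstm2b* and *Tpbg* lie below 0 over all members and within 0.18 of 0 in shallow marker-rich members, and the intervals of *Gadd45g*, *Bdnf*, *Pde10a* and *Glul* do not reach 0 in either. *Trpm1*, *Pcp2*, *Prkca* and *Isl1* belong to the gate, which fixes part of their values.

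Heat shock genes were lower in ND6 members and in all other kept cells. All 9 measured heat shock genes were lower over all members (median -0.72, 1 of 8 past 2-fold, background 1.57%), all 7 in shallow marker-rich members (median -0.57) and all 10 in all other kept cells (median -0.87). *Hspa8*, the constitutive HSC70 chaperone, was at 1497 and 936 CPM in shallow marker-rich members, -0.68 (interval -0.90 to -0.46), and *Hsp90ab1* at 827 and 556 CPM, -0.57 (interval -0.87 to -0.29). Over all members their log2 ratios were -0.72 and -0.41. Immediate-early genes had a median of -0.59 over all members (12 genes) and -0.21 in shallow marker-rich members (6 genes), against -1.13 in all other kept cells. *Fos* was at 144 and 47.5 CPM in shallow marker-rich members and *Egr1* at 80.4 and 29.3 CPM, and over all members the log2 ratios were -1.05 and -1.30. *Btg2* and *Jund* ran the other way, with 0.71 (interval 0.20 to 1.23) and 0.57 (interval 0.077 to 1.07). Such genes are known to respond to tissue dissociation, and handling and genotype cannot be told apart with 1 library of each.

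Among nuclear noncoding RNAs, *Meg3* and *Rian*, which lie in the same imprinted cluster, were lower in ND6 members. *Meg3* was at 1416 and 862 CPM over all members, -0.72 (interval -0.84 to -0.59), and 1732 and 1276 CPM in shallow marker-rich members, -0.44 (interval -0.64 to -0.25). *Rian* was at 138 and 29.3 CPM there, -2.24 (interval -3.53 to -1.14), on 48 and 8 UMIs. In all other kept cells both were higher in ND6, at 2.33 and 2.48. That library also had more ON gate cells and higher medians of the amacrine (1.24), ganglion (0.89) and horizontal cell (1.03) lists there, whose part in this was not tested. *Malat1* was at 39199.5 and 37699.8 CPM in shallow marker-rich members, -0.056 (interval -0.093 to -0.019). The ribosomal protein genes had a median of 0.019 over all members and -0.091 in shallow marker-rich members, 80 genes in both.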

How the data were processed

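Single-cell 3′ RNA was measured in 1 WT and 1 ND6 library of mouse retina. Cell Ranger 3.0.2 with mm10 is named in the submitters' processing notes, and the authors deposited raw UMI counts per gene and barcode for the whole barcode list, without normalization. The release of the gene annotation is not given in the sources used here. The matrices held 77958836 WT and 80358255 ND6 UMIs over 32285 genes. Gene positions were taken from GENCODE vM21 (GRCm38, the assembly of mm10) by Ensembl ID, which matched all 361 genes tabulated by name.

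Cells were kept by the limits of the study's methods and gated as described above; the members, gene lists and tests were chosen with earlier results of these data known, and the split by 10 gate UMIs and 10000 UMIs after their values were seen. UMIs were summed per library over the cells of a set and divided by their total (CPM). Intervals are at 95%, by Clopper-Pearson for shares, the Poisson distribution for levels and the conditional binomial for ratios; a count of 0 is drawn at 3 counts. They cover counting error only. For list medians a gene needed 20 UMIs in the libraries together, with 0.5 UMIs added to each sum, and counts past 2-fold used genes with at least 50. Genes named were members of the lists, and, of other genes outside the gate, the 15 highest over all other kept cells, the 10 highest and 10 lowest over the other ON gate cells (at least 50 UMIs), and the 12 highest and 12 lowest by ND6 over WT (at least 100 UMIs); genes on X or Y and genes with clone names were counted but not named unless a list held them. Tests over cells (MAST and Wilcoxon, as in the study's methods) were not used, because cells of 1 library are not replicates. Thinning drew UMIs without replacement. The calculation of ratios and their intervals was checked on simulated counts with known folds. Python 3.11.15, numpy 2.4.6, scipy 1.17.1 and pandas 2.3.3 were used. Some genes are counted in the lists but not reported here by name. No doublet caller was run, and all cells that met the limits were used. The alternatives recomputed were the limits on mtDNA UMIs, cell depth, gate UMIs and gene counts, thinning, removal of cells with the most rod UMIs, and means over cells. The kept cells are fewer than the study states for its merged data.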

Additional observations from a re-analysis of the deposited data

Results flagged for a closer look

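The following lists had median log2 ratios of ND6 over WT with opposite signs in rod bipolar members and in all other kept cells. The difference between the sets of cells was not tested. The medians over all members, followed by those in all other kept cells, were -0.96 and 1.02 for the rod bipolar markers outside the gate, -0.18 and 0.83 for the mGluR6 cascade, -0.19 and 1.08 for genes common to bipolar cells, and -0.068 and 0.93 for inhibitory receptors. These genes are expressed by bipolar cells, and the ON gate cells among the other kept cells numbered 96 in WT and 264 in ND6. In shallow marker-rich members the medians were -0.13, 0.059, 0.20 and -0.13.

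The nuclear genes of the respiratory complexes gave -0.070 over all members and 0.16 in all other kept cells. By complex the values were -0.024 and 0.17 for complex I, -0.14 and 0.15 for complex III, -0.21 and 0.17 for complex IV, and -0.086 and 0.17 for complex V. In shallow marker-rich members complex I stood at 0.017, complex III at -0.12, complex IV at -0.079 and complex V at -0.027. The rod list gave 0.49 over all members and -0.0016 in all other kept cells. In shallow marker-rich members it gave 0.52, with 10 of 12 genes higher. Per cell, the median rod share there was 0.525% in WT and 0.449% in ND6, and the highest was 6.06% and 7.82%.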

How the results depend on the processing

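All values are log2 ratios of ND6 over WT unless called genes. The alternatives with at least 10 gate UMIs, with and without a limit of under 10000 UMIs, were chosen after seeing the data. The share of rod bipolar cells, 0.11 as reported, was 0.58 with no mtDNA limit, -0.41 with at least 4 gate UMIs, -0.81 with cells thinned to 400 UMIs before the gate (25 WT and 21 ND6 members), -0.61 with at least 10 gate UMIs and -0.92 with the depth limit added. The mtDNA share of UMIs, -0.32 as reported, was -0.46 with no mtDNA limit, 0.038 at most 10% mtDNA UMIs, -0.25 with at least 4 gate UMIs, -0.73 in shallow marker-rich members and -0.56 as a mean over cells. At most 10% mtDNA UMIs, the mtDNA list stood at -0.079 and *mt-Nd1* at 0.19, *mt-Co2* at 0.10, *mt-Atp6* at 0.10, *mt-Co3* at 0.057, *mt-Nd4* at 0.0050 and *mt-Cytb* at 0.15, on a limit that acts on the measured quantity itself.

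In shallow marker-rich members the medians were -0.033 for nuclear respiratory genes, -0.13 for rod bipolar markers, 2.28 for Müller genes, of which 3 of 8 had enough UMIs and *Glul* is the median (2.21 over 7 with the 10 gate UMIs alone) and 0.11 for cone genes, and the gene ratios *Vsx1* -1.97 (2 and 0 UMIs), *Hbb-bs* 0.83 (2 and 3 UMIs), *Trpm1* 0.043, *Prkca* 0.011, *Car8* 0.0090 and *Tpbg* 0.15 had the opposite sign from all members. Without the 10% of cells highest in rod genes, nuclear respiratory genes stood at -0.20, antioxidant genes at -0.033 and rod genes at 1.64. Rod genes gave 0.14 at most 10% mtDNA UMIs and 0.85 as a mean over cells. The cause of these shifts was not tested, and the cone value in shallow marker-rich members rested on few cells.

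Genes at least 2-fold higher, 253 as reported, numbered 132 at most 10% mtDNA UMIs, 155 with at least 4 gate UMIs, 474 without the cells highest in rod genes, 129 with at least 10 gate UMIs, 40 in shallow marker-rich members, 523 as a mean over cells, 687 with at least 20 UMIs per gene and 29 with at least 200. Genes at least 2-fold lower, 102 as reported, numbered 54 with at least 10 gate UMIs, 18 in shallow marker-rich members, 204 with at least 20 UMIs per gene and 34 with at least 200. No paired analysis was possible because each group is 1 library, which also leaves no replicate to leave out. Depth limits single genes, since 62 and 48 shallow marker-rich members left 2384 genes with 50 UMIs.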

Other observations

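Lists that entered no comparison above gave these values. Of 7 measured cone bipolar genes, 6 were higher and 1 lower in ND6 over all members (median log2 ratio 0.31). In marker-poor members 2 of 6 were higher and 4 lower (median -0.66), and the list summed to 1139 and 718 CPM, on 87 and 400 UMIs. The per-cell medians of marker-poor members were nearly equal, at 0.0649% in WT and 0.0646% in ND6, with highest values of 0.371% and 0.422%. In the other ON gate cells the list summed to 1066 and 1372 CPM. Marker-poor members were 17.0% of WT and 49.6% of ND6 members, and their part in the first median was not tested. In shallow marker-rich members 1 of the 13 genes had enough UMIs. OFF bipolar genes had a median of -0.038 over 3 genes. General stress-response genes had -0.035 over 8 genes, 4 higher and 4 lower, against -0.49 over 11 genes in all other kept cells. Amacrine genes had 0.71 over 5 genes over all members and were too sparse in shallow marker-rich members.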
